A study of Mus musculus with 8 samples.

Results

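The genes examined were the R-spondin ligands, their Lgr receptors and the membrane proteins that take WNT receptors off the cell surface, in 2 regions of the mouse embryonic head mesenchyme. They were chosen by symbol as Rspo1, Rspo2, Rspo3, Rspo4, Lgr4, Lgr5, Lgr6, Znrf3, Rnf43 and Kremen1, and all 10 were found among the 23420 genes of the table. The supraorbital mesenchyme (SOM), above the eye, and the early migrating mesenchyme (EMM) were both taken from wild type C57BL/6 embryos at E12.5, with no treatment. Each group had 4 libraries of total RNA, and each library joined the tissue of 4 to 5 embryos, so that single embryos cannot be seen. Both tissues had been treated with dispase and cleared of surface ectoderm and brain. The comparison asked how the supraorbital tissue differs from the early migrating tissue.

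R-spondins are secreted proteins that make cells more responsive to WNT ligands. Without them, the transmembrane ubiquitin ligases ZNRF3 and RNF43 mark Frizzled receptors for removal from the cell surface. An R-spondin bound to LGR4, LGR5 or LGR6 and to a ligase draws that ligase off the membrane, and Frizzled receptors then accumulate. KREMEN1 acts on the co-receptor side, where together with DKK proteins it takes LRP6 out of the membrane. Canonical WNT signalling in the cranial mesenchyme is known to be needed for the skull bone and dermal lineages.

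The make-up of the R-spondin and Lgr transcripts differed between the regions. Rspo3 and Lgr5 were higher in SOM, 9.43-fold and 11.5-fold by the group means. Rspo1, Rspo2, Lgr4, Lgr6, Rnf43 and Kremen1 were higher in EMM, by 1.25-fold to 2.57-fold. Znrf3 did not pass the test, and Rspo4 was close to the limit of detection in both regions. All values given are normalized counts, which are reads divided by a size factor per library, unless a sentence says otherwise. Differences are SOM minus EMM on the scale of log2(normalized count + 1), fitted over all genes with limma, and a gene was called at a Benjamini-Hochberg adjusted p below 0.05.

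The libraries held 16.8 to 33.7 M gene-assigned reads in SOM and 12.7 to 22.4 M in EMM. In this comparison 72.1% of the 14249 tested genes were called, 36.0% higher in SOM and 36.1% higher in EMM, and the groups did not overlap in 66.1%. Of the 10 genes, 9 passed the filter on low values, of which 8 were called, 2 higher in SOM and 6 higher in EMM. The median difference of the 9 was -0.35, beside 0.01 over all tested genes. Calls this common make the count itself no result about these genes, and the sizes below carry the description. All 8 markers of cranial mesenchyme were present in every library at 467 normalized counts or more. They summed to 185279 to 205030 in SOM against 357336 to 412809 in EMM, with 3 higher in SOM and 5 in EMM. Col1a2 made up most of that sum in each EMM library. Markers of other cell types were also measured. Neural crest glia markers summed to 906 to 1025 in SOM against 83.5 to 111 in EMM, with 5 of 5 higher in SOM, and osteoblast lineage markers to 5576 to 7136 in SOM against 1810 to 2167 in EMM, with 5 of 6 called higher in SOM. Macrophage markers summed to 1434 to 1577 in SOM against 5351 to 6499 in EMM, with 7 of 7 higher in EMM. Pericyte and smooth muscle markers summed to 8387 to 10232 in SOM against 55920 to 62997 in EMM, with 6 of 7 higher in EMM. The other, Cspg4, was higher in SOM, at 599 to 983 against 593 to 677 in EMM. The contractile genes Acta2 and Tagln made up most of the sum in each EMM library. Cartilage markers summed to 31204 to 52317 in SOM against 27666 to 29091 in EMM, with 4 of 5 higher in SOM. Endothelial markers summed to 11461 to 13679 in SOM against 15191 to 20173 in EMM, with 5 of 7 higher in EMM and 1 in SOM. Brain markers summed to 3988 to 4249 in SOM against 8092 to 9498 in EMM, with 3 of 8 called higher in EMM and 1 in SOM. Skeletal muscle markers summed to 71.8 to 106 in SOM against 316 to 553 in EMM, with 2 of 7 called, both higher in EMM. Myh8 alone made up most of the sum in each EMM library. Myog was low and lay the other way, at 3.78 to 13.4 in SOM and 0 to 1.02 in EMM. The mean log2 level of the 7 overlapped, at 2.26 to 2.76 in SOM and 2.52 to 2.70 in EMM. Myod1, Myf5 and Pax7 averaged under 1 normalized count. Since the tissue was measured in bulk, fewer cells of a type and less RNA per cell cannot be told apart for any gene described here. The part of these cell types in the differences was not tested.

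**Figure D1:**
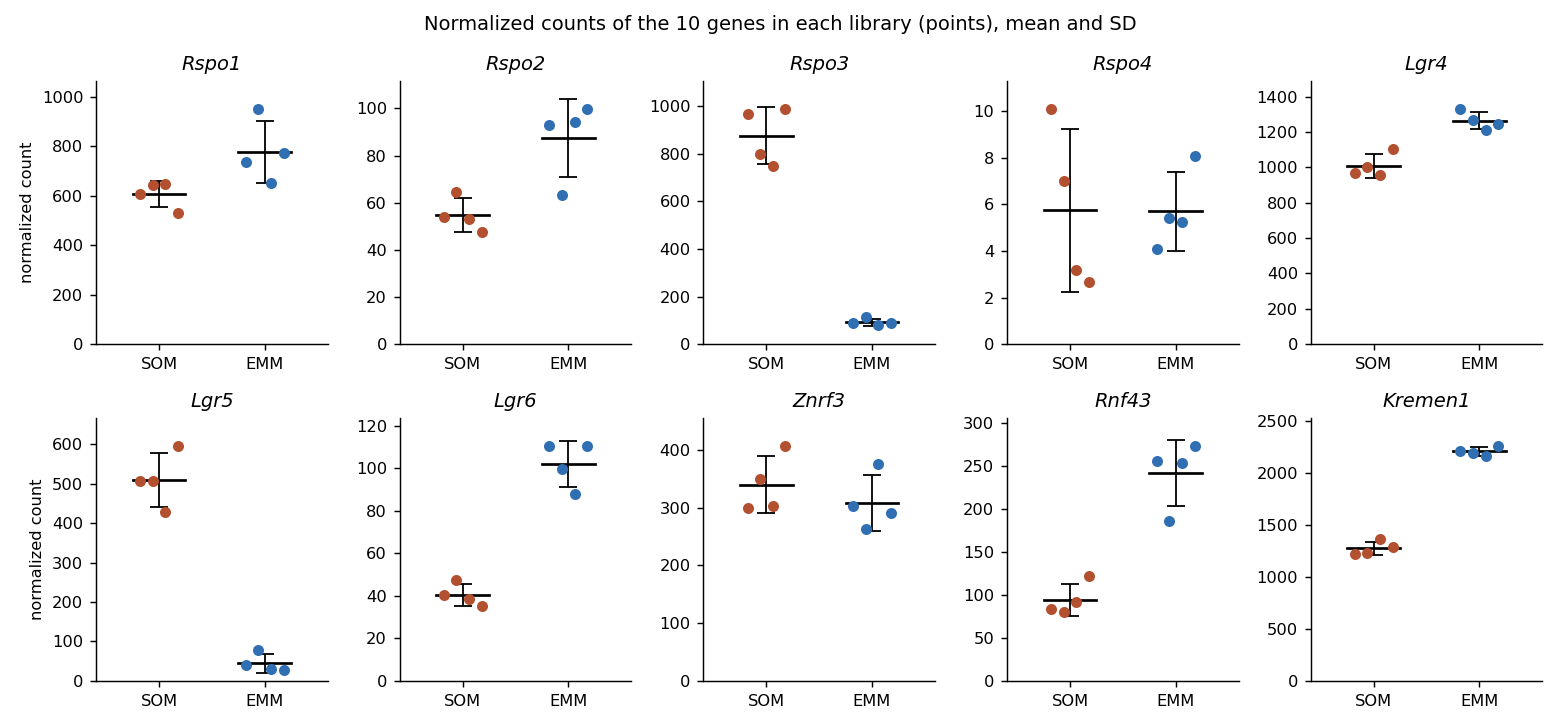
Normalized counts of the 10 genes, 1 panel per gene on its own linear axis from 0, with SOM libraries left and EMM libraries right. Points are libraries, horizontal bars the means and whiskers the SD (n = 4 libraries per group). Rspo3 and Lgr5 lie far higher in SOM, and the groups overlap in Rspo2, Rspo4 and Znrf3.

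Among the ligands, Rspo3 had the largest difference. RSPO3 is known from vascular and placental development, and binds LGR receptors and both ligases. It stood at 967, 797, 750 and 987 in SOM replicates 1 to 4 and at 87.9, 114, 79.4 and 90.2 in EMM replicates 1 to 4. The lowest SOM library was thus several times above the highest EMM library, and the spread within each region was narrow, at 1.32-fold in SOM and 1.43-fold in EMM between the highest and lowest library. The means were 875 ± 119 in SOM and 92.9 ± 14.8 in EMM (SD, n = 4), resting on 4560 reads in SOM and 292 in EMM. The log2 difference was 3.23 (SE 0.12, limma adjusted p = 3.02e-12), the 188th largest of all tested genes in size. Called differences of at least 8-fold toward SOM were found in 105 tested genes (0.737%), Rspo3 and Lgr5 among them. Rspo3 lies on chromosome 10 from 29452416 to 29535867 on the minus strand (GRCm38), and 404 of its exonic bases are shared with the antisense gene Gm48159. Gm48159 is not among the genes of the table. The sources used here do not say whether counting used the strand, so the Rspo3 counts may include antisense reads of that stretch.

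Rspo1 went the other way by a small amount. RSPO1 is known for its role in ovary development. It stood at 606, 641, 647 and 531 in SOM and at 734, 949, 652 and 771 in EMM. The groups did not overlap, but only narrowly, with the highest SOM library just under the lowest EMM library. The means were 606 ± 53.2 in SOM and 777 ± 125 in EMM (SD, n = 4), with a log2 difference of -0.35 (SE 0.10, limma adjusted p = 0.00815). Its highest value, in EMM replicate 2, contributed to the size, and without that library the log2 difference was -0.25 (limma adjusted p = 0.0164).

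Rspo2 was expressed at a low level in both regions. RSPO2 is needed for limb and craniofacial development in the mouse. It stood at 54.1, 64.4, 53.0 and 47.4 in SOM and at 93.0, 63.3, 94.1 and 99.6 in EMM. EMM replicate 2 fell inside the SOM range, and the other EMM libraries lay above it. The means were 54.7 ± 7.07 in SOM and 87.5 ± 16.4 in EMM (SD, n = 4), and the log2 difference was -0.65 (SE 0.17, limma adjusted p = 0.00241).

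Rspo4, known for its role in nail formation, did not pass the filter of 10 normalized counts in 4 libraries. It had 8, 10, 5 and 4 reads in SOM and 4, 3, 5 and 6 reads in EMM, which gave 5.73 ± 3.48 normalized counts in SOM and 5.70 ± 1.69 in EMM (SD, n = 4). With 27 reads in SOM and 18 in EMM altogether, a difference was not detectable at this depth (two-sided exact permutation test, p = 1, where the smallest p that 4 against 4 libraries allow is 0.0286).

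**Figure D2:**
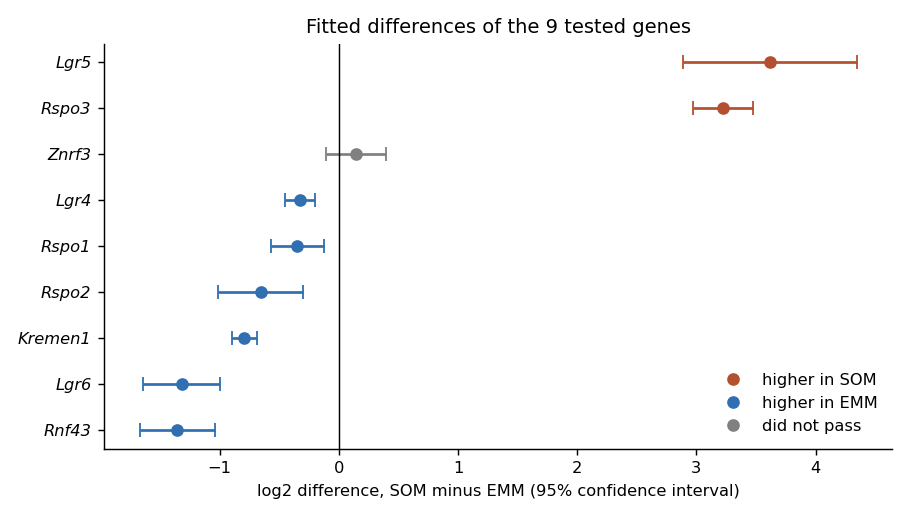
Fitted log2 differences, SOM minus EMM, of the 9 tested genes with 95% confidence intervals from limma, ordered by size down the page. Lgr5 (3.62) and Rspo3 (3.23) stand apart on the positive side, Rnf43 (-1.36) and Lgr6 (-1.32) lie lowest, and the interval of Znrf3 includes 0.

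Among the receptors, Lgr5 showed the largest difference of the 10 genes. LGR5 is best known as a marker of stem cells in the intestine and the hair follicle and is itself a target of WNT signalling. It stood at 506, 507, 429 and 596 in SOM and at 39.9, 79.5, 29.3 and 28.3 in EMM. All SOM libraries lay far above all EMM libraries, while the EMM libraries varied 2.81-fold among themselves. The means were 510 ± 68.2 in SOM and 44.2 ± 24.1 in EMM (SD, n = 4), with 2691 reads in SOM and 132 in EMM. The log2 difference was 3.62 (SE 0.31, limma adjusted p = 1.18e-05), 129th in size of all tested genes. In the authors' deposited table, whose fold change runs EMM over SOM, the log2 values were -3.22 for Lgr5 and -3.20 for Rspo3.

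EMM replicate 2, the library with the highest Lgr5 in EMM, also had the highest level of surface ectoderm markers. The mean log2 level of the 10 ectoderm markers was 4.41, 4.45, 4.44 and 5.20 in SOM replicates 1 to 4 and 3.62, 5.87, 4.89 and 3.86 in EMM replicates 1 to 4. Their summed level was 262 to 488 in SOM and 768 to 1070 in EMM. None was at 0 in all libraries, and 2 were called, both higher in EMM. Cdh1 and Krt8, higher in every EMM library than in every SOM library, made up most of the EMM sums. Krt5, Krt14, Krt15, Trp63, Esrp1 and Grhl2 were lower in EMM replicates 1 and 4 than in every SOM library. Epcam and Krt18 overlapped between the regions. The basal keratin gene Krt5, for example, had 192 in EMM replicate 2 and 3.07 to 55.4 in the other EMM libraries. In SOM it had 43.4 to 140, highest in replicate 4. The sum is thus no sign of more ectoderm in every EMM library. Without EMM replicate 2 the log2 difference of Lgr5 was 3.94 (limma adjusted p = 6.94e-12), larger than with all libraries. With SOM replicate 4 and EMM replicates 2 and 3 left out together, it was 3.80 (limma adjusted p = 1.81e-10).

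Lgr4, the most widely expressed of the Lgr receptors, differed little between the regions. It stood at 968, 1005, 957 and 1102 in SOM and at 1329, 1267, 1214 and 1244 in EMM. The groups did not overlap, and the spread within each was small. The means were 1008 ± 65.9 in SOM and 1263 ± 48.7 in EMM (SD, n = 4), with a log2 difference of -0.33 (SE 0.06, limma adjusted p = 9.93e-05).

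Lgr6, known from stem cells of the hair follicle, had the lowest level per kilobase of the Lgr receptor genes in SOM. It stood at 40.3, 47.6, 38.3 and 35.4 in SOM and at 110, 99.4, 87.8 and 110 in EMM. Every EMM library lay above every SOM library. The log2 difference was -1.32 (SE 0.15, limma adjusted p = 9.92e-07), on 213 reads in SOM and 329 in EMM. Called differences of at least 2-fold were found toward EMM in 11.0% of tested genes and toward SOM in 5.19%.

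Of the ligases that R-spondins act on, Rnf43 was higher in EMM and Znrf3 did not pass the test. Rnf43 stood at 83.1, 80.5, 91.9 and 122 in SOM and at 256, 186, 253 and 273 in EMM. The groups were well apart, with the highest SOM library (replicate 4) and the lowest EMM library (replicate 2) nearest to each other. The log2 difference was -1.36 (SE 0.15, limma adjusted p = 5.65e-07), and it was -1.62 when SOM replicate 4 and EMM replicates 2 and 3 were left out. Znrf3 stood at 300, 350, 303 and 407 in SOM and at 304, 262, 375 and 291 in EMM, with overlapping groups. Its means were 340 ± 50.1 in SOM and 308 ± 48.1 in EMM (SD, n = 4), and the 95% confidence interval of its log2 difference of 0.14 ran from -0.11 to 0.40 (limma adjusted p = 0.289). In the authors' deposited table, whose fold change runs EMM over SOM, the log2 values were 1.32 for Rnf43 and -0.14 for Znrf3, with an adjusted p of 0.383 for Znrf3.

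Kremen1 was the least variable of the genes. It stood at 1223, 1233, 1363 and 1292 in SOM and at 2216, 2200, 2164 and 2263 in EMM. The groups did not overlap and the EMM libraries lay within 1.05-fold of each other. The means were 1277 ± 64.4 in SOM and 2211 ± 41.2 in EMM (SD, n = 4), and the log2 difference was -0.79 (SE 0.05, limma adjusted p = 9.21e-10). Kremen1 and Znrf3 are neighbours on the minus strand of chromosome 11, at 5191552 to 5261558 and at 5276324 to 5444847 (GRCm38), 14.8 kb apart.

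The sequences upstream of the transcription start are shown for Lgr6 and Rnf43, since these had the largest differences toward EMM among the 10 genes. RefSeq (GRCm38.p6) start entries were matched for 5 of the 10 genes, Rspo1, Rspo4, Lgr4, Lgr6 and Rnf43, and Rnf43 has a pair of annotated starts. Each line gives the 250 bases before a start, 5′ to 3′ on the strand of the gene, with CpG dinucleotides in capitals. The windows are chr1:135105277-135105526 on the minus strand for Lgr6, chr11:87662837-87663086 on the plus strand for the upstream start of Rnf43, and chr11:87699647-87699896 on the plus strand for its downstream start. In the GENCODE annotation Rnf43 begins at 87662722, so both of its windows precede RefSeq starts but lie within the GENCODE gene.
Lgr6: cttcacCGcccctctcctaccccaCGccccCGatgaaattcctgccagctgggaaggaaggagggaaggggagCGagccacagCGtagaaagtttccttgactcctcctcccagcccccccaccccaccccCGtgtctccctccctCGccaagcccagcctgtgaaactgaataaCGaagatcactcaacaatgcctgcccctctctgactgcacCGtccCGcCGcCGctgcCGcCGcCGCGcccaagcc
Rnf43 upstream start: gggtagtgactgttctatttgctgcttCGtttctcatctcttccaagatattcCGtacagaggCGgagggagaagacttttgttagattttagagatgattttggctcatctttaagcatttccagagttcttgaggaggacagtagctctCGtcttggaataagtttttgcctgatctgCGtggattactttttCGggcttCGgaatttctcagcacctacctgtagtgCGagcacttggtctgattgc
Rnf43 downstream start: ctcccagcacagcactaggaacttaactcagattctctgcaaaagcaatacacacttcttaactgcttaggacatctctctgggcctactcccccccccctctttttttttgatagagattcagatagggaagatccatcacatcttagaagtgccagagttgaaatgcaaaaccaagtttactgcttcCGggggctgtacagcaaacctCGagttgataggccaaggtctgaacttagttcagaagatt
The Lgr6 window held 16 CpG dinucleotides, the upstream Rnf43 window 8 and the downstream one 2, where the median over 32851 start windows was 6. The sequence letters CTTTGAA and CTTTGAT, a core bound by TCF and LEF factors, were searched on both strands and were in none of the 6 windows of these genes, beside 7.48% of all windows. The homeobox core TAATTA, a palindrome, was in none of the 6 either, beside 4.84% of all windows.

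Levels of different genes were compared only per length, as normalized count per kilobase of annotated exons. In SOM, Rspo1 (313 ± 27.5) and Rspo3 (283 ± 38.6) did not differ in level per kilobase beyond the spread of their libraries, and Rspo2 (10.7 ± 1.38) and Rspo4 (2.42 ± 1.47) lay far below. In EMM, Rspo1 (401 ± 64.6 per kilobase) stood above Rspo3 (30.1 ± 4.77), Rspo2 (17.1 ± 3.21) and Rspo4 (2.41 ± 0.71), with no overlap between neighbours in that order (SD, n = 4 each). With the longest transcript of each gene as its length, the EMM libraries of Rspo3 (25.8 to 36.9 per kilobase) and Rspo2 (19.0 to 29.8) overlapped. Rspo3 made up 41.3% to 52.9% of the summed R-spondin level per kilobase in SOM libraries and 6.48% to 6.81% in EMM libraries. The sum over the 4 R-spondins was 588 to 640 per kilobase in SOM and 383 to 541 in EMM, without overlap.

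The order of the receptors per kilobase also differed between the regions. In SOM it was Lgr4 (171 ± 11.2), Lgr5 (49.6 ± 6.64) and Lgr6 (5.90 ± 0.76), and in EMM it was Lgr4 (215 ± 8.28), Lgr6 (14.9 ± 1.57) and Lgr5 (4.31 ± 2.35), each pair of neighbours without overlap. Lgr4 was the leading receptor in every library. Lgr5 made up 21.8% ± 1.40 of the summed Lgr level in SOM and 1.83% ± 0.97 in EMM (SD, n = 4). This share depends on the length used for Lgr5, whose annotated exons together cover 10264 bases while its longest transcript has 4793, and with the longest transcript of each gene it was 34.0% in SOM and 3.33% in EMM. With those lengths the EMM libraries of Lgr5 (5.90 to 16.6 per kilobase) and Lgr6 (13.2 to 16.5) overlapped. The summed Lgr level per kilobase of annotated exons overlapped between the regions, at 210 to 250 in SOM (mean 227) and 222 to 246 in EMM (mean 234). This sum also depends on the length, and with longest transcripts the order of its means was reversed. With those lengths Lgr4 averaged 199 per kilobase in SOM and 250 in EMM, and Lgr5 106 in SOM and 9.23 in EMM. Between the ligases, Znrf3 (43.1 ± 6.35 per kilobase) lay above Rnf43 (14.4 ± 2.87) in SOM, and in EMM Znrf3 (39.0 ± 6.10) and Rnf43 (36.9 ± 5.84) overlapped.

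**Figure D3:**
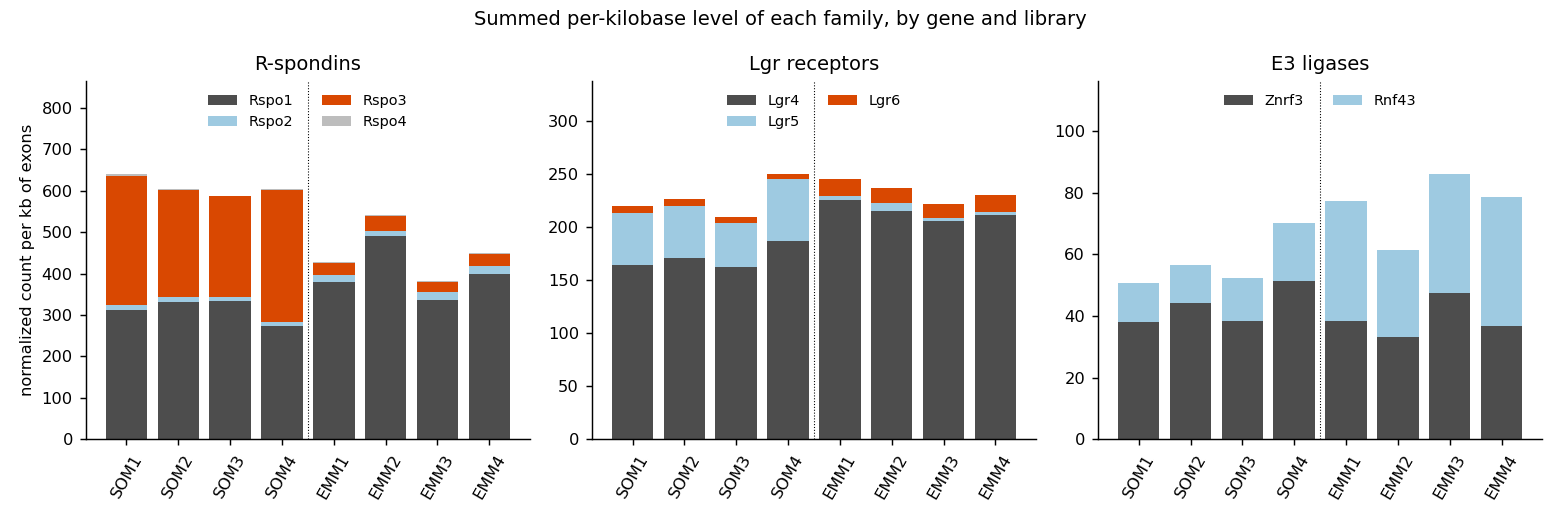
Normalized count per kilobase of exons, stacked by gene, in each SOM library (left of the dotted line) and each EMM library (right of it), for the R-spondins, the Lgr receptors and the E3 ligases. Rspo1 fills a large segment in all 8 libraries, the Rspo3 segment is of like size to it in SOM and thin in EMM, Lgr5 adds a visible segment on Lgr4 in SOM, and Rnf43 is the smaller segment in SOM.

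Ratios of family members within a library do not depend on scaling between libraries. Ratios were formed for 3 pairs, chosen after the values had been seen. The Rspo3 to Rspo1 ratio of normalized counts was 1.16 to 1.86 in SOM libraries and 0.117 to 0.122 in EMM libraries. The EMM values lay close together although EMM replicate 2 was the highest in both genes. Rspo3 had only 86, 63, 76 and 67 reads in EMM replicates 1 to 4, so this closeness is not taken as a trait of EMM. The Lgr5 to Lgr4 ratio was 0.448 to 0.541 in SOM and 0.0227 to 0.0628 in EMM. Rnf43 to Znrf3 gave 0.230 to 0.303 in SOM and 0.674 to 0.940 in EMM. The log2 ratios differed by 3.59, 3.98 and -1.51 in that order (SOM minus EMM). Since the pairs were chosen with the values known, these ratios are a description, with no test.

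The rest of the WNT pathway was described by 6 lists of other genes, whose counts of calls are to be read beside the 72.1% of all tested genes that were called, 36.0% higher in SOM and 36.1% higher in EMM. The list of 16 WNT receptors and co-receptors includes the Frizzled genes and Lrp6, whose proteins the ligases and KREMEN1 act on. Of the 16, the test called 7 toward SOM and 5 toward EMM and left 4 uncalled, and the median log2 difference was -0.04. Fzd9 (224 ± 62.2 in SOM, 54.6 ± 13.1 in EMM, 4.10-fold by the means), Fzd2 (log2 difference 0.43) and the atypical WNT receptor gene Ryk (log2 difference 0.25) were higher in SOM. Fzd10 (568 ± 51.6 in SOM, 2166 ± 231 in EMM, log2 difference -1.93), Ptk7 (-0.36) and the co-receptor gene Lrp6 (-0.36) were higher in EMM. Lrp5 stood at 2767 ± 231 in SOM and 2781 ± 36.8 in EMM and did not pass.

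Dkk1, Dkk2 and Dkk3, whose products are secreted WNT modulators, were higher in EMM, as Kremen1 was. Of 6 DKK and KREMEN partners, 5 passed the filter and 3 of these were higher in EMM, while 0 were called toward SOM and the list median was -0.44. Dkk2 stood at 1846 ± 97.5 in SOM and 6754 ± 362 in EMM (log2 difference -1.87), Dkk3 at -1.33 and Dkk1, the classic LRP6 antagonist, at -0.44. Kremen2 was low, at 17.2 ± 3.01 in SOM and 15.3 ± 11.3 in EMM, and did not pass. Dkk4 was below the filter.

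Of 21 genes for WNT ligands and their secretion, 12 passed the filter, and the test called 3 of them toward SOM and 6 toward EMM, at a list median of -0.28. Wnt6 (27.5 ± 5.66 in SOM, 459 ± 27.9 in EMM, log2 difference -4.03), Wnt2b (-2.24) and Wls, the carrier of WNT proteins to the membrane (-1.10), were higher in EMM. Wnt5b (0.56), Porcn (0.29) and Wnt5a (0.16) were higher in SOM by small amounts, and Wnt5a lost its call without SOM replicate 4 and EMM replicates 2 and 3 (limma adjusted p = 0.265).

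Among 14 genes of the intracellular relay, calls toward SOM numbered 6 and calls toward EMM 3, 5 genes were not called, and the list median was -0.08. The 9 called genes differed little in size, from Dvl2 (0.38), Apc2 (0.34) and Gsk3a (0.29) to Csnk1a1 (-0.23), Apc (-0.45) and Tnks2 (-0.45). The count higher in EMM was 6 without SOM replicate 4, when Dvl3, Gsk3b and Tnks were called as well.

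Genes known to respond to WNT or to mediate the response split, with 7 of 12 called toward SOM, 4 toward EMM and 1 not called, at a list median of 0.50. The nuclear factor gene Lef1 (5369 ± 187 in SOM, 1281 ± 90.6 in EMM, log2 difference 2.07), Myc (1.54) and the cyclin gene Ccnd1 (1.36) were higher in SOM. The feedback inhibitor genes Nkd1 (-1.05) and Nkd2 (-1.24) and the factor gene Tcf7 (-0.90) were higher in EMM. Axin2, a widely used readout of canonical WNT signalling, stood at 3737 ± 254 in SOM and 4497 ± 462 in EMM and was higher in EMM (log2 difference -0.26, limma adjusted p = 0.00353). Axin2, Lrp5 and Kremen2 were named after their values were seen.

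Heparan sulfate proteoglycans, to which R-spondins bind, were called in 8 of 8, with 3 higher in SOM, 5 in EMM and a median of -0.22. The highest adjusted p of the 8 was that of Sdc1, named after its values were seen (5887 ± 383 in SOM, 6450 ± 339 in EMM, limma adjusted p = 0.0400), whose groups overlapped and which was not called under 9 of 18 alternatives, among them edgeR, limma-voom and the fit with no filter. Gpc4 (2204 ± 45.4 in SOM, 1178 ± 51.4 in EMM, log2 difference 0.90), Sdc4, a syndecan that takes up R-spondin 3 in Xenopus (0.43), and Sdc3 (0.16) were higher in SOM. Sdc2 (-1.60), Gpc6 (-1.56) and Gpc3 (-0.52) were higher in EMM. Sdc3 lost its call without SOM replicate 4 and EMM replicates 2 and 3 (limma adjusted p = 0.0878). The limma adjusted p was at most 0.0121 for each of the genes named as called in these lists, where the text gives no other. Of the 33 list genes named by rule, 7 share exonic bases with another annotated gene, Wnt5a, Dvl2, Apc2, Gsk3a, Lef1, Ccnd1 and Sdc3, so their reads may include reads of the partner.

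**Figure D4:**
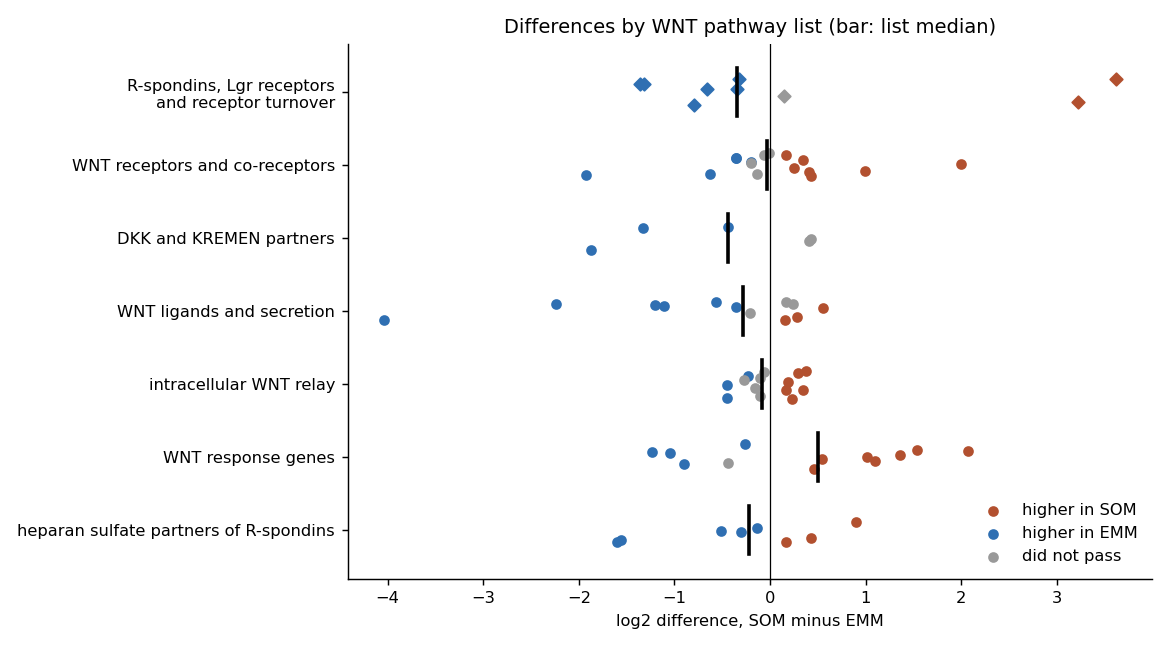
Log2 differences, SOM minus EMM, of tested genes in each WNT pathway list (circles) and of the 9 tested R-spondin, Lgr and turnover genes (diamonds, top line), coloured by call, with the list median as a black bar. Rspo3 and Lgr5 lie farther toward SOM than every circle, and Wnt6 (-4.03) is the farthest on the side of EMM.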

How the data were processed

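RNA of 4 SOM and 4 EMM pools was sequenced from Illumina TruSeq libraries, per the labels' protocols. Per the submitters' processing notes, the tools were bcl2fastq, STAR and DESeq2 (no versions) and the build mm10. The sources used here do not give the annotation, counter or strand setting. The library columns deposited by the authors hold a signal, the reads of a gene over the library's size factor, with its mean, a log2 fold change (EMM over SOM) and its standard error, a Wald score, and p-values plain and adjusted. In all 8 libraries 100% of values were integer multiples of the column's smallest nonzero value within 1 ppm, so reads were recovered by division.

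Genes with at least 10 normalized counts in at least 4 libraries (14249 of 23420) were fitted as log2(normalized count + 1) with limma 3.58.1 in R 4.3.3, with trend and robust moderation and no covariate. This scale understates changes of low genes. Alternatives used edgeR 4.0.16, DESeq2 1.42.0 and limma-voom on recovered reads, other pseudocounts, filters and scaling, and libraries left out. Lengths and coordinates came from GENCODE M21 (GRCm38), start sequences from RefSeq. Adgre1 was matched by an older symbol.

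The members, lists and tests were chosen with earlier results of these data known. Named are all 10 members and, per list, up to 3 genes per direction with the lowest adjusted p, and 3 genes most alike in pattern to the most abundant member of each role. The labels name pools and no further source, so p-values measure the spread between pools. Chi-square per degree of freedom between libraries of a group was 3.57 to 18.1, so none was the same library sequenced again. The statistic cannot tell a separate pool from a second preparation of the same pool. The depth sets the precision of low genes such as Rspo4. The sources used here name no molecular identifiers, so reads cannot be taken as counts of separate molecules.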

Additional observations from a re-analysis of the deposited data

How the results depend on the processing

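All 9 tested members kept their direction and their side of the threshold under each of 18 alternatives. The log2 difference ran from 3.16 to 3.33 for Rspo3, 3.45 to 3.94 for Lgr5, -1.62 to -1.29 for Rnf43, -1.40 to -1.24 for Lgr6, -0.43 to -0.25 for Rspo1, -0.80 to -0.59 for Rspo2, -0.40 to -0.30 for Lgr4, -0.82 to -0.76 for Kremen1 and 0.05 to 0.24 for Znrf3, whose lowest adjusted p was 0.0569. With the replicate number as a block, 2 members were higher in SOM and 6 in EMM, as without it, and 5103 genes were higher in SOM and 5146 in EMM. Same-numbered libraries did not deviate together (r from -0.02 to 0.13), so the numbers were not taken as pairs, and the block changed no call of a member.

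The DKK and KREMEN list had 1 gene higher in SOM, Kremen2, when SOM replicate 4 and EMM replicates 2 and 3 were left out, an alternative chosen after seeing the data. The count of relay genes higher in EMM was 6 there, and 3 to 6 with each library left out in turn; the cause was not tested. With longest transcripts as lengths, the Rspo3 share of the R-spondins in EMM was 6.23% in place of 6.67%, and the Lgr5 share of the Lgr receptors was 34.0% in SOM and 3.33% in EMM, since the Lgr5 length changes. The log2 ratio differences with each library left out ran from 3.46 to 3.69 for Rspo3 to Rspo1, 3.82 to 4.31 for Lgr5 to Lgr4 and -1.58 to -1.42 for Rnf43 to Znrf3. Depth limits Rspo4, whose mean difference of 0.03 normalized counts ran from -1.42 to 1.05.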

Other observations

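Genes with a pattern like the most abundant member of each role were listed by Pearson r of log2 values over the 8 libraries, among 11265 genes with a mean of at least 100, as a description, since the libraries share the regional difference. For Kremen1 the closest were Ehd1 (r = 0.999), Slc7a8 (r = 0.999) and Galnt10 (r = 0.998), and 1888 genes had r of at least 0.95. For Lgr4 they were Slc30a4 (r = 0.996), Trip11 (r = 0.994) and the tankyrase gene Tnks2 (r = 0.994), with 763 genes at 0.95 or more. For Rspo1 they were Uchl1 (r = 0.983), Bscl2 (r = 0.951) and 2700069I18Rik (r = 0.945), and 2 genes reached 0.95.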
